A study of Caenorhabditis elegans with 16 samples.

Results

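The small RNAs of Caenorhabditis elegans chromosome X are described here as 1939 regions of 1 kb. They were taken from the table of 1000 bp bins as the X bins that carry neither the GRH nor the GRTS mark and have a mean of at least 5 RPKM (reads per kilobase, scaled to the sequencing depth of the library) over the 16 libraries. They are 10.9% of the 17719 bins of X, and 17719 of the 100257 bins of the table lie on X. The same rule kept 23120 of the 82538 bins of chromosomes I to V, or 28.0%. The members nearest to the threshold were at a mean of 5.006 (fbxa-53, X:1717001–1718000), 5.007 (ajm-1, X:9105001–9106000) and 5.014 RPKM (unc-2, X:2749001–2750000), and the nearest bins outside were at 4.995 and 4.996 RPKM. The marks, which the authors set and which are not expanded in the sources used here, are rare on X: GRH stands at 3 bins and GRTS at 0.

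Young adult hermaphrodites were profiled by small RNA sequencing, with a cloning method that does not need a 5′ monophosphate. The 16 libraries are 16 genotypes with 1 library each, 4 genetic backgrounds in 4 states of the gene hrde-1. Besides wild type, the backgrounds carried set-32(ok1457), set-32(red11), or met-2(n4256) together with set-25(n5021). In each background hrde-1 was never mutant, carried the tm1200 allele (mutant), or had been mutant and then repaired and grown to an early generation (F5, except for set-32(ok1457) with F8) or a later one, F20. Never mutant wild type is the strain N2. All libraries of a background carry its set-32 or met-2 set-25 alleles, also the never mutant ones, so the background mutations stay in place when hrde-1 is repaired. As no genotype has a second library, the p-values below measure the spread between backgrounds or between states and not between cultures of a strain.

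HRDE-1 is an Argonaute protein that binds secondary siRNAs in the germline and carries them into the nucleus, where they direct the silencing of matching loci over generations. Secondary siRNAs are made by RNA-dependent RNA polymerases on transcripts and carry a 5′ triphosphate, which this kind of cloning takes in. SET-32 has a SET domain, the fold of many histone methyltransferases. MET-2 and SET-25 methylate histone H3. The X chromosome of C. elegans is largely silent in the germline for much of germ cell development, and many genes with germline functions lie on the autosomes.

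The worth of 1 read, read from the lowest values, was 1.45 to 6.30 RPKM per bin (median 2.45). The X bins held the equivalent of 15161 to 53223 reads a library (median 30662), and 3 reads were worth 4.35 to 18.9 RPKM. The summed RPKM of a library reached 67.7 to 96.7% of what a per-depth scaling over all bins would give. In 5 libraries it was 85% or more: never mutant and mutant set-32(ok1457), never mutant and mutant set-32(red11), and early repaired met-2 set-25. These 5 are called the high-total libraries below. The bins matched the gene annotation best without a shift in all 18 windows of X (r 0.066 to 0.453, median 0.28, shifts of up to 8 kb tried), so genes are named from the WBcel235 annotation although the build of the deposited bins is not given in the sources used here. The match was weakest near the ends of X, so gene names rest on less there. The r was 0.066 and 0.138 in windows 1 and 2 at the left end. In windows 17 and 18 at the right end it was 0.176 and 0.139. The match was not checked on the autosomes, whose gene content below uses the same annotation. Bins do not separate strand or read length. Over hrde-1 itself the mutant libraries had 248 to 390 RPKM and the other 12 had 280 to 711 RPKM, which overlap and so do not check the labels.

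Small RNAs were sparser on X than on the autosomes in every library. The X bins had a mean of 3.64 to 5.62 RPKM and the autosomal bins of 7.4 to 10.68 RPKM. The ratio of X to autosomes was 0.495 ± 0.0462 (SD, n = 16 libraries; 0.408 to 0.555), lower than 1 in 16 of 16 libraries. On the log2 scale it was −1.02 ± 0.14 (exact sign-flip permutation test, two-sided, p = 3.1e-05, the smallest that 16 libraries can give). X holds 17.7% of the bins and took 8.06 to 10.6% of the summed RPKM (median 9.70%).

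Fewer bins carried signal on X. The median level of the bins that passed the threshold was alike, but both sets start at 5 RPKM, which draws their medians together. Bins worth at least 1 read made up 15.6 to 33.3% of X and 28.3 to 47.8% of the autosomes over the 16 libraries. The median member had 13.9 RPKM on X (quartiles 7.68 and 32.4), and the autosomal bins kept by the rule had a median of 13.9 RPKM as well (quartiles 8.32 and 26.8). Bins over 100 RPKM made up 6.4% of the X members (124 bins) and 4.23% of the autosomal ones. The 90th percentile of the kept bins was 70.4 RPKM on X and 47.3 to 58.6 RPKM on the autosomes. Of the 2731 protein-coding genes of X, 811 overlapped a member bin (29.7%), against 54.97% of the protein-coding genes of chromosomes I to V and 34.2% on chromosome V, the lowest autosome. The highest 1% of the X members (19 bins) held 9.54 to 17.8% of all X signal (median 13.6%), and the highest 1% of the autosomal bins kept by the rule (231 bins) held 9.93 to 14.9% of the autosomal signal (median 12.3%), so these ranges overlap.

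Members were not spread evenly along X. Within 2 Mb of either end, 726 of 4000 bins were members (18.2%), and in the 13719 bins between, 1213 were (8.84%). The first of these shares was 2.05 times the other, and the same ratio on the 5 autosomes ran from 0.829 on III to 1.13 on IV. The end bins are 22.6% of the bins of X and held 30.5 to 42.5% of its signal (median 36.9%). Their share was lowest in the mutant met-2 set-25 library (30.5%) and the mutant wild-type library (31.2%), and highest in never mutant set-32(red11) (42.5%), mutant set-32(ok1457) (42.4%) and never mutant set-32(ok1457) (42.2%). The last 3 are high-total libraries, and the part of that class in the share was not tested. By windows of 1 Mb, the share of members was highest from 0 to 1 Mb (19.7%), from 1 to 2 Mb (19.2%) and from 16 to 17 Mb (18.3%), and lowest from 6 to 7 Mb (5.1%) and from 10 to 11 Mb (5.4%). Members formed 1014 runs of neighbouring bins with a mean length of 1.91 kb, and 57.2% of the runs were a single bin, against a mean of 2.87 kb and 43.3% on the autosomes.

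**Figure D1:**
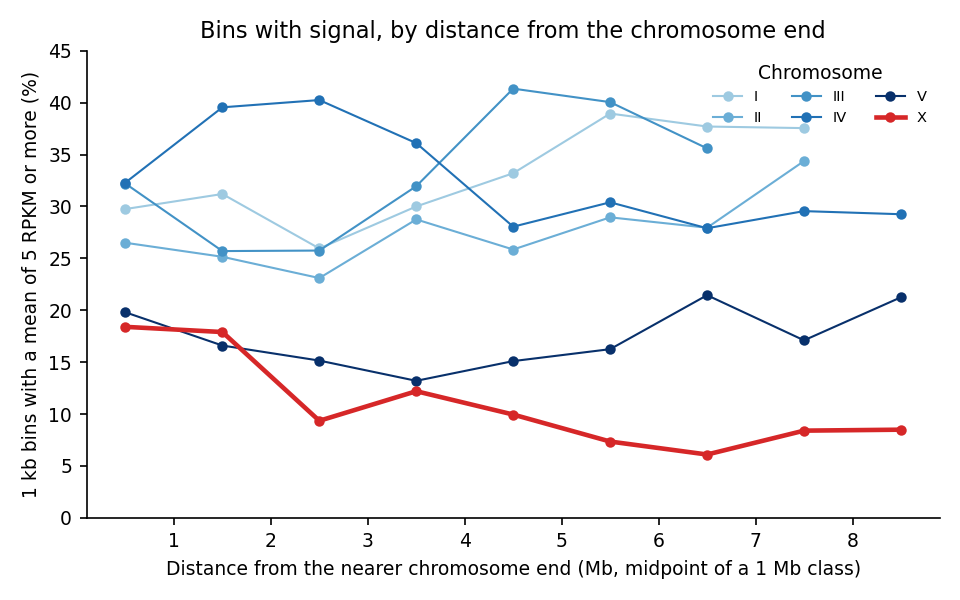
Percent of 1 kb bins whose mean reached 5 RPKM and that carry no GRH or GRTS mark (y axis) by distance from the nearer end of each chromosome in Mb (x axis), 1 line per chromosome; classes under 500 bins are left out. On X (red) the share falls from 18.4% in the outermost 1 Mb to 6.1% between 6 and 7 Mb, whereas the lines of the autosomes show no such common fall.

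The genes under the members differed in kind between X and the autosomes. Protein-coding genes overlapped 70.8% of the X members and 87.6% of the autosomal ones. Transfer RNA genes overlapped 223 X members (11.5%) and 1.26% of the autosomal members, and X holds 276 of the 634 tRNA genes of the annotation (43.5%). MicroRNA genes overlapped 47 X members (2.42%, against 0.48%), pseudogenes 165 (8.51%, against 4.56%) and long intergenic RNA genes 23 (1.19%, against 0.454%). Another 246 members (12.7%) overlapped no named gene, where piRNA genes were not counted as names. The median level was 12.3 RPKM for members with a protein-coding gene, 29.2 RPKM for those with a tRNA gene, 30.2 RPKM for those with a microRNA gene and 42.5 RPKM for those with a long intergenic RNA gene. The tRNA members summed to 4759 RPKM in never mutant set-32(red11) and to 11552 RPKM in early repaired met-2 set-25, the shallowest library, with a median of 6990 RPKM. They held 6.38 to 15.9% of the signal of all members. Reads of identical tRNA copies cannot be assigned to 1 gene, and how reads with several matches were treated is not given in the sources used here.

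Of the 73 microRNA gene names of X, 52 overlapped a member bin. MicroRNAs are short processed RNAs that direct the repression of messenger RNAs. The highest of these bins held the cluster of mir-54, mir-55, mir-55b and mir-56 (X:13144001–13145000), with 142 to 447 RPKM (median 241). Next by mean came the bins of a pair of genes annotated as mir-258.2 (X:228001–229000 and X:237001–238000, medians 219 and 204 RPKM), a bin with mir-8196b and prx-1 (X:14324001–14325000, median 162 RPKM) and a bin with mir-5592-1 and mir-5592-2 (X:13759001–13760000, median 169.8 RPKM). The bins of mir-82 (X:2435001–2436000) and mir-84 (X:16022001–16023000) had medians of 87.0 and 86.8 RPKM. The mir-258.2 bins ranged from 27.1 to 381 and from 21.1 to 361 RPKM over the libraries. They also overlap AC8.3 and AC8.10, the mir-54 cluster bin F09A5.3, the mir-5592 bin aakb-1 and the mir-82 bin gid-2. The values cover all small RNAs of a bin and not the mature microRNA alone.

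The highest member was a bin of linc-22, a long intergenic noncoding RNA gene (X:9069138–9073735, plus strand). Its bin at X:9072001–9073000 had 1538 RPKM in N2, 1135 in the wild-type mutant, 1643 at F5 and 1589 at F20. The same bin had 1943, 2491, 1449 and 1612 RPKM in set-32(ok1457) in that order of states, 1496, 1474, 1205 and 1459 in set-32(red11), and 1009, 729.5, 1938 and 905 in met-2 set-25. The mutant was the lowest of the 4 states in wild type and in met-2 set-25 and the highest in set-32(ok1457). A further bin of linc-22 (X:9071001–9072000), which also overlaps the small nucleolar RNA gene F47E1.19, had a mean of 701 RPKM.

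The next highest members were bins of F02C12.3, a protein-coding gene (X:13397001–13398000, mean 1088 RPKM), of his-24, a linker histone H1 gene (X:14490001–14491000, 798 RPKM), of the pseudogene K09C4.3 (X:3294001–3295000, 792 RPKM) and of got-1.2, a glutamate-oxaloacetate transaminase gene (X:16792001–16793000, 712 RPKM). The other bins among the 10 highest overlap cdh-9, a cadherin gene (X:16602001–16603000, 509 RPKM), again got-1.2 (X:16791001–16792000, 469 RPKM) and the pseudogene F46F2.4 (X:15257001–15258000 and X:15258001–15259000, 439 and 434 RPKM). Several of these bins overlap further genes. The noncoding RNA gene F02C12.7 lies in the F02C12.3 bin and M163.16 and M163.19 in the his-24 bin. T01C8.10 lies in both got-1.2 bins and T01C8.11 in the higher one. The cdh-9 bin also overlaps the protein-coding gene F59C12.4, and cdh-9 ends at X:16602245. Bins do not tell which of the genes the small RNAs match. The F02C12.3 bin varied most of these bins, from 554 RPKM in N2 to 2495 RPKM in mutant set-32(ok1457). None of the 10 passed the test in any comparison below.

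The most variable members were bins of the yolk protein genes and of the adult cuticle collagen gene col-19. The vitellogenin genes vit-1 to vit-5 all lie on X, code for yolk proteins and are expressed in the intestine of adult hermaphrodites. Their 31 bins, 30 of them members, summed to 4949 RPKM in N2, 8446 in the wild-type mutant, 3067 at F5 and 3207 at F20. In set-32(ok1457) the sums were 111, 101, 6328 and 5244 RPKM in the same order of states, in set-32(red11) 91.6, 127, 3664 and 5844 RPKM, and in met-2 set-25 5022, 5919, 457 and 4539 RPKM. The 5 high-total libraries thus had 91.6 to 457 RPKM and the other 11 had 3067 to 8446 RPKM, and these ranges do not overlap. Fewer cells of a type and less RNA per cell cannot be told apart in such samples.

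With the vit bins left out of X and of the total, X took 8.05 to 10.6% of the signal in the high-total class and 7.74 to 10.03% outside it, which overlap. Muscle genes of X (act-4, mlc-1, mlc-2, mup-2 and unc-27 among 7 listed) summed to 28.0 to 138 RPKM in the 5 and to 142 to 643 RPKM in the 11. For the hypodermis the list held 5 cuticle or body size genes, of which col-19 alone had member bins, and summed to 1.48 to 14.45 RPKM against 88.8 to 374 RPKM. elt-2, which codes for an intestinal GATA factor, was near 0 in every library (0.09 to 5.82 RPKM over its 3 bins). The 13 neuronal genes summed to 562 to 979 RPKM in the 5 and to 185 to 499 RPKM in the 11. That gap came from unc-10, a synaptic vesicle release gene, with 416 to 804 RPKM over its 9 bins in the 5 and 17.5 to 399 RPKM in the 11. The other 12 neuronal genes summed to 113 to 174 RPKM and to 100.2 to 168 RPKM, which overlap. The members that followed the vit sum most closely over the 16 libraries were 2 bins of C39D10.7 (X:7912001–7913000 and X:7911001–7912000, Pearson r 0.988 and 0.962) and bins of the cuticle collagen genes col-179, col-181 and col-184 (r 0.982, 0.980 and 0.968). These r describe libraries that fall into 2 classes (85% or more of the full sum, or less), and each of these bins was at 31.5 RPKM or less in the 5 high-total libraries.

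**Figure D2:**
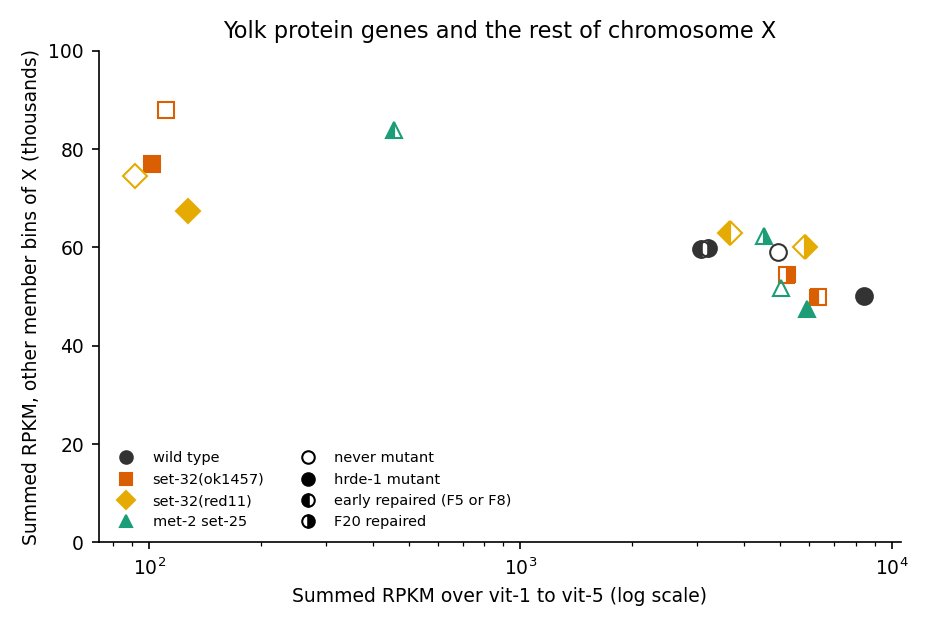
Summed RPKM of the vit-1 to vit-5 bins (x axis, log scale) against the summed RPKM of all other X members (y axis, in units of 1000), 1 symbol per library, with colour and shape for the background and filling for the state of hrde-1. The 5 high-total libraries lie at the upper left, with 91.6 to 457 RPKM over vit-1 to vit-5, and the other 11 at the lower right, with 3067 RPKM or more. As the class was set by the summed RPKM of all bins, its place on the y axis is not a finding.

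Other listed genes of X had low or moderate levels. Among 6 dosage compensation and sex determination genes, xol-1, the master switch of sex determination, had a mean of 31.2 RPKM per bin and ceh-39, an X signal element, 16.6, and sdc-2, sex-1 and fox-1 had no member bin. Among 6 germline and small RNA factors, lin-15B, a chromatin factor gene, had 12.5 RPKM per bin with 7 of 7 bins being members, and the microRNA Argonaute gene alg-1 had none. Of 5 listed targets of endogenous siRNAs, 3 lie on X in the annotation: F52D2.6 (37.9 RPKM per bin), F39F10.4 (35.8) and F55A4.4 (11.2). In the comparisons below, 0 of the 30 vit bins, 12 muscle, 2 hypodermis, 12 neuronal, 8 dosage compensation, 10 germline, 5 siRNA target, 47 microRNA and 223 tRNA members passed the test in either direction. Of all bins tested, 0 to 1.14% were called in these comparisons. Counts of 0 in lists of this size therefore do not set these genes apart.

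Loss of hrde-1 went with a lower share of X in the small RNA signal in each background, but the shift did not pass the test over libraries. X took 10.6% of the summed RPKM in N2 and 9.11% in the wild-type mutant, 10.43 and 9.43% in set-32(ok1457), 8.80 and 8.06% in set-32(red11), and 8.51 and 8.46% in met-2 set-25. Mutant minus never mutant was −1.53, −0.9995, −0.74 and −0.05 percentage points in that order of backgrounds, lower in 4 of 4. A permutation within the backgrounds cannot reach a p under 0.05 with 4 pairs, so it could not decide on this fall. The group means were 8.76 ± 0.62% for the mutants and 9.59 ± 1.10% for the never mutant libraries (SD, n = 4 each; exact permutation p = 0.257, adjusted over 7 comparisons 0.6). Each of these 4 pairs lies within one class of the summed RPKM, and 3 of them share the name prefix of their libraries, the exception being wild type.

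Bin by bin, more X members lay lower in the mutants than higher. The median difference, mutant minus never mutant, was −0.14 on the log2(RPKM + 1) scale over the 1939 members, 0.06 over the autosomal bins tested and 0.05 over all 25407 bins tested. At an unadjusted p under 0.05 in limma's test, 254 members were lower (13.1%) and 62 higher (3.2%). The autosomal bins were nearly balanced, with 5.40% lower and 5.07% higher. Members with no named gene had a median of −0.43 and those with a tRNA gene of −0.01.

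**Figure D3:**
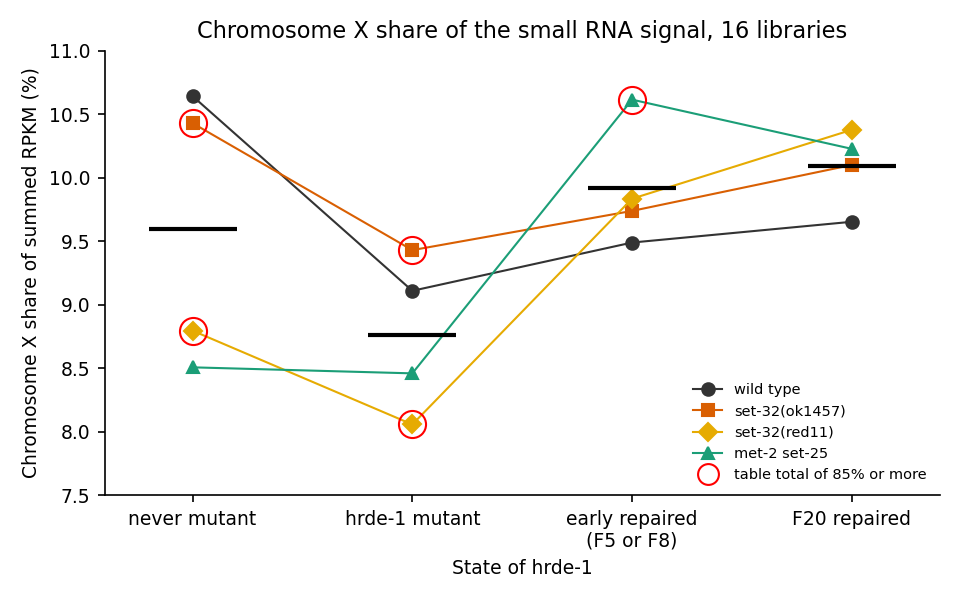
Share of chromosome X in the summed RPKM (y axis, percent; the axis does not start at 0) by state of hrde-1, 1 symbol per library joined by background, with black bars for the mean of 4 libraries and red rings for the 5 high-total libraries. Each line falls from never mutant to mutant, and all 8 repaired libraries lie above the mutant of their own background.

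After adjustment over all bins, 23 members were called between mutant and never mutant libraries, 18 lower in 11 regions and 5 higher in 3 regions (limma, adjusted p under 0.05). That is 1.19% of the members. Of all bins tested, which include bins with a GRH or GRTS mark, 1.14% were called. Of the autosomal bins without these marks, 0.839% were called (194 of 23120). All 23 moved the same way in 4 of 4 backgrounds, and for 17 of them the mutant and never mutant values did not overlap. The 23 were selected on these same pairs of libraries, so neither count is separate support for them. Of the 23, 18 lay within 2 Mb of an end, where 2.48% of the members were called, against 0.412% of the members between. With called bins up to 10 kb apart joined into loci, there were 5 loci near the ends and 5 between. For the autosomal bins without a mark the shares were 0.825% near the ends and 0.844% between. The count was 9 with a pseudocount of 0.25, 5 without the block by background and 0 when bins of low level were kept in the test. Leaving out set-32(red11) left 0 called members, and leaving out met-2 set-25, set-32(ok1457) or wild type left 2, 7 or 11.

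The largest loss was over K02D3.2 (X:13709001–13710000), where the never mutant libraries had 25.4 RPKM in wild type, 28.6 in set-32(ok1457), 22.03 in set-32(red11) and 21.4 in met-2 set-25. The mutants had 0, 0, 2.62 and 4.69 RPKM in the same order, which is at or below the worth of about 2 reads (log2 difference −3.56 ± 0.65, SE; limma adjusted p = 0.0406). The groups do not overlap. As mutants are near 0, the size of this difference depends on the pseudocount of 1.

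At the right end of X, the pseudogene K09E3.4 and the 3 kb after it had fewer small RNAs in every mutant, with 4 of the 5 bins called. The 5 bins of X:17119001–17124000 summed to 297 RPKM in N2 and 41 in the wild-type mutant, 411 and 126 in set-32(ok1457), 341 and 64.5 in set-32(red11), and 174 and 32.4 in met-2 set-25. Mutants were at 3.71 to 26.6 RPKM in the bin with the largest change (X:17120001–17121000) and never mutant libraries at 46.9 to 129.7 RPKM, without overlap (log2 difference −3.03 ± 0.32; limma adjusted p = 0.00906). At F5 or F8 and F20 the 5 bins stood at 212 and 169.5 RPKM in wild type, 359.5 and 258 in met-2 set-25, 78.4 and 120.0 in set-32(ok1457) and 65.8 and 182 in set-32(red11).

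At the left end, Y73B3A.11, a protein-coding gene, and the neighbouring pseudogene Y73B3A.9 behaved likewise. Over the 5 bins of X:148001–153000 the sum was 321 RPKM in N2 and 84.4 in the wild-type mutant, 544 and 138 in set-32(ok1457), 538 and 84.4 in set-32(red11), and 224 and 34.6 in met-2 set-25. All 5 bins were called, with log2 differences from −2.82 (± 0.40, X:148001–149000; limma adjusted p = 0.0169) to −1.96 (± 0.36, X:152001–153000; adjusted p = 0.0437). The repaired wild-type libraries had 377.5 and 384 RPKM, above N2. The repaired libraries of set-32(ok1457) had 72.1 and 79.4 RPKM, below their mutant, those of set-32(red11) 121 and 108, and those of met-2 set-25 117.5 and 214 RPKM.

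A bin with no named gene at X:7348001–7349000 had 88.3 RPKM in N2 and 6.91 in the wild-type mutant, 169.6 and 41.5 in set-32(ok1457), 173 and 20.9 in set-32(red11), and 66.8 and 12.4 in met-2 set-25 (log2 difference −2.71 ± 0.32; limma adjusted p = 0.0117). The other called losses include a bin of C45B2.6 (X:6052001–6053000) and one of srd-50, a chemoreceptor gene (X:13481001–13482000; 55.55 to 113 RPKM in never mutant and 22.2 to 39.4 RPKM in mutant libraries). The gains outside the F41G4 run were 2 neighbouring bins with no named gene near the right end (X:17705001–17707000). The first of them had 25.1 to 90.5 RPKM in never mutant and 122 to 258 RPKM in mutant libraries, without overlap (log2 difference 1.49 ± 0.26; limma adjusted p = 0.0370).

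**Figure D4:**
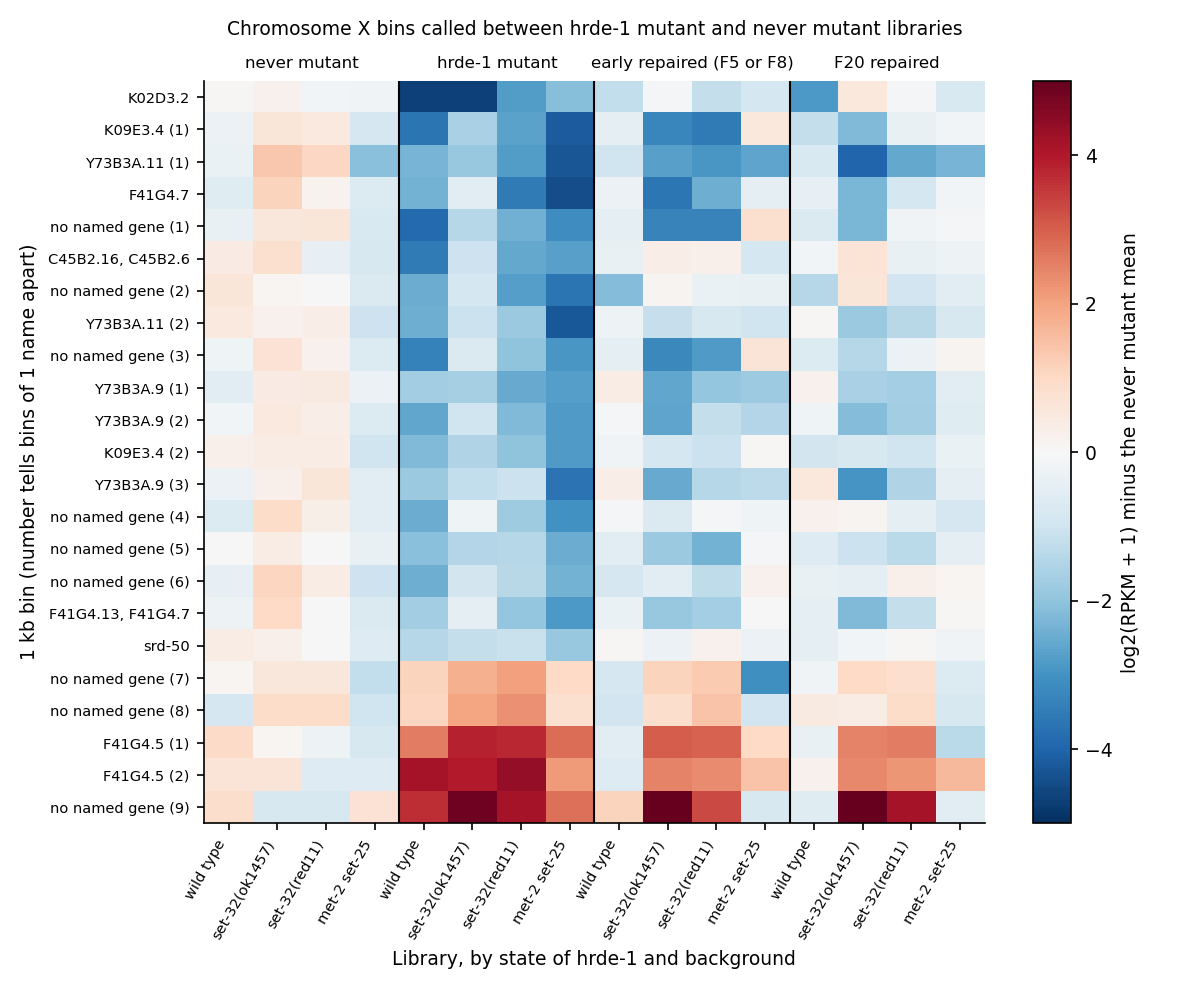
The 23 X members called between mutant and never mutant libraries (rows) in the 16 libraries (columns, by state and background); colour is log2(RPKM + 1) minus the mean of the 4 never mutant libraries of that bin, blue lower and red higher. In the repaired wild-type libraries 20 of the 23 bins at either generation lie within 1 log2 unit of the never mutant mean, in met-2 set-25 15 early and 20 at F20, in set-32(ok1457) 8 and 8, and in set-32(red11) 5 and 13.

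Loss and gain met in the longest run of members, 15 neighbouring bins at X:16824001–16839000. The run covers the 5′ side of sto-5, a stomatin gene on the minus strand, the pseudogene F41G4.5 (X:16829493–16832740, minus strand), and the protein-coding genes F41G4.13 and F41G4.7 (X:16834896–16836404, minus strand). Its 2 bins of sto-5 had 12.05 to 101.9 RPKM in the mutant and repaired set-32(ok1457) libraries and 0 to 13.7 RPKM elsewhere. The length of 15 bins thus rests on that background. Over the 4 bins of F41G4.5, small RNAs summed to 29.1 RPKM in N2 and 126 in the wild-type mutant, 21.6 and 669 in set-32(ok1457), 10.8 and 304 in set-32(red11), and 8.4 and 90.3 in met-2 set-25. Over the 3 bins of F41G4.7 they went from 367 to 117, from 984.8 to 415, from 531 to 109.6 and from 272 to 38.7 RPKM in the same order of backgrounds. F41G4.5 was thus higher and F41G4.7 lower in each mutant.

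Both sides of the run passed the test. The gain at X:16831001–16832000 is in a bin with a mean of 7.92 RPKM. The mutants there had 5.86 to 31.5 RPKM and the never mutant libraries 0 to 1.45 RPKM. That bin passed the filter on the mean largely through the mutants, so its call is not independent of the filter. Called gains were a bin with no named gene between sto-5 and F41G4.5 (X:16828001–16829000; log2 difference 3.86 ± 0.71; limma adjusted p = 0.0437) and 2 bins of F41G4.5 (X:16831001–16832000, 3.66 ± 0.62, adjusted p = 0.0318; X:16832001–16833000, 3.24 ± 0.42, adjusted p = 0.0138). The called losses were 1 bin of F41G4.7 (X:16835001–16836000, −2.72 ± 0.40, adjusted p = 0.0177), the bin it shares with F41G4.13 (X:16834001–16835000, −1.75 ± 0.24) and the last bin of the run (X:16838001–16839000, −1.77 ± 0.32).

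After repair the run differed by background. At F5 and F20, F41G4.5 was at 22.1 and 13.7 RPKM in wild type and at 29.6 and 16.5 RPKM in met-2 set-25, where the never mutant libraries had 29.1 and 8.4 RPKM. At F8 and F20 in set-32(ok1457) it was at 528 and 591 RPKM, and at F5 and F20 in set-32(red11) at 148 and 148 RPKM, against 21.6 and 10.8 RPKM in the never mutant libraries. The bin at X:16829001–16830000, 1 of the 10 most variable members, had 345 RPKM at F8 and 490 at F20 in set-32(ok1457), 32.5 and 55.1 RPKM in set-32(red11), and 1.21 to 11.04 RPKM in the repaired wild-type and met-2 set-25 libraries.

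**Figure D5:**
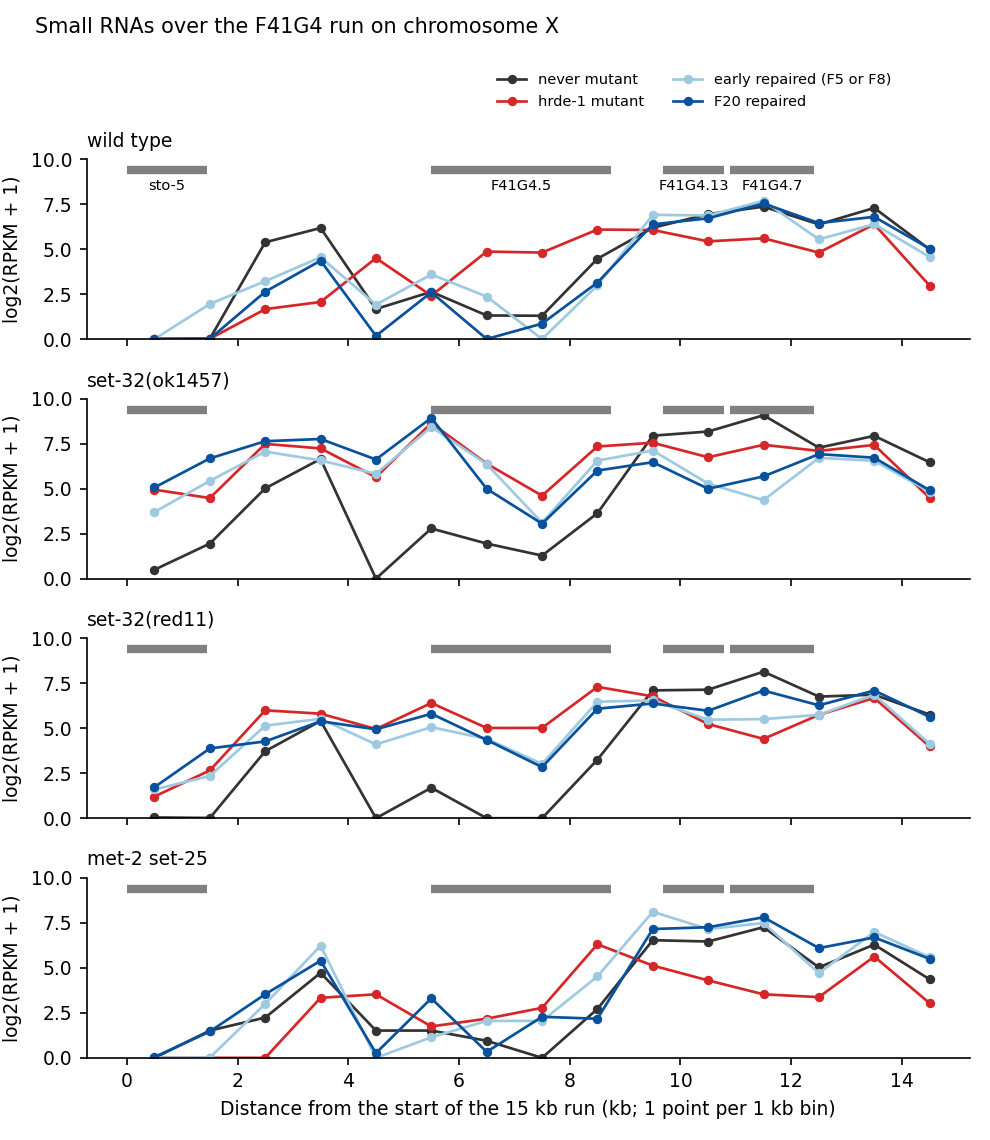
log2(RPKM + 1) (y axis) of the 15 bins of the F41G4 run by distance from its start in kb (x axis), 1 panel per background and 1 line per state of hrde-1; grey bars are the annotated genes sto-5, F41G4.5, F41G4.13 and F41G4.7. Summed over F41G4.5, the repaired libraries had 148 to 591 RPKM in both set-32 panels and 13.7 to 29.6 RPKM in the wild-type and met-2 set-25 panels.

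Repair of hrde-1 went with a larger share of X than in the mutants. X took 9.49, 9.74, 9.84 and 10.6% of the signal in the early repaired libraries of wild type, then of set-32(ok1457), set-32(red11) and met-2 set-25, and 9.65, 10.1, 10.38 and 10.2% at F20. The early repaired mean was 9.92 ± 0.49% and the F20 mean 10.1 ± 0.31% (n = 4 each), and neither group overlaps the mutants, at 8.06 to 9.43%. The exact permutation p was 0.0286 for either comparison, the smallest that 4 against 4 allows, and 0.1 adjusted over 7 comparisons, so neither passed. With the vit bins left out of X and of the total, the differences were 1.17 and 1.18 percentage points and the unadjusted exact permutation p 0.114 and 0.0857. In set-32(ok1457) both differences turned negative there (−0.53 at F8 and −0.02 at F20). No mutant and repaired pair of libraries shares both the class of the summed RPKM and the name prefix, and the labels do not say whether a prefix is a batch. Within one class of the summed RPKM, the repaired library was higher by 0.38 and 0.54 percentage points in wild type and by 1.77 in met-2 set-25 at F20.

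Among the members, 0 were called between early repaired and mutant libraries, where 0.0433% of all bins were, and 0 between F20 and mutant libraries, where 0.134% were (limma). At an unadjusted p under 0.05 these comparisons had 82 members higher (4.23%) and 43 lower (2.22%) for the early generation, and for F20 108 higher (5.57%) and 73 lower (3.76%). The autosomal bins leaned the other way, with 2.05% higher against 6.01% lower for the early generation, and 2.54% against 7.76% for the later one. The median difference was 0.13 over the members and −0.24 over the autosomal bins for early repaired minus mutant, and 0.10 and −0.23 for F20 minus mutant, with medians of −0.21 over all bins in both. The bin of C45B2.6 (X:6052001–6053000) had the lowest p among those higher after repair, with 2.16 to 17.1 RPKM in the mutants, 18.9 to 45.3 RPKM early and 27.5 to 58.5 RPKM at F20 (log2 differences 2.29 and 2.44; limma adjusted p = 0.345 and 0.11). Y73B3A.20 (X:54001–55000) was next at the early generation, with 29.9 to 124 against 2.80 to 60.2 RPKM (adjusted p = 0.374), and F54B11.9 (X:13606001–13607000) at F20, with 9.80 to 34.1 against 0 to 8.52 RPKM (adjusted p = 0.175). Lowest p among those lower after repair were a bin with no named gene at X:16453001–16454000 early (4.2 to 29.0 against 23.5 to 89.6 RPKM; adjusted p = 0.353) and F41G4.5 at F20 (X:16832001–16833000, 3.51 to 67.1 against 66.9 to 162 RPKM; adjusted p = 0.201). Next early was X:17706001–17707000, at 12.4 to 70.25 against 44.6 to 125 RPKM (limma adjusted p = 0.46). Next at F20 was X:17705001–17706000, at 37.2 to 124 against 122 to 258 RPKM (limma adjusted p = 0.255).

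Between repaired and never mutant libraries 0 of 1939 members and 0% of all bins were called at either generation (limma), with 70 members at an unadjusted p under 0.05 for the early generation (0.567% higher and 3.04% lower, against 0.827 and 2.74% of the autosomal bins) and 84 for F20 (2.11% higher and 2.22% lower, against 0.98 and 3.26%). X took 0.33 percentage points more of the signal in early repaired and 0.50 more in F20 libraries than in never mutant ones (exact permutation p = 0.543 and 0.429, adjusted 0.76 and 0.75), higher in 2 of 4 backgrounds each. Among the bins of lowest p were one with no named gene at X:9250001–9251000 (0 to 22.3 RPKM never mutant, 21.1 to 70.9 early, 2.44 to 83.1 at F20) and one with C11E4.8 and F34H10.1 (X:9626001–9627000; 0.36 to 4.38 never mutant and 4.24 to 51.97 early), with limma adjusted p of 0.958 or more. A bin with C17H11.6 and C47D2.4 (X:8201001–8202000) was higher at F20, at 11.2 to 22.9 against 0.73 to 9.31 RPKM. Lower early were X:254001–255000 (0 to 30.35 against 3.52 to 57.3 RPKM) and R04E5.8 (X:8803001–8804000, 0 to 9.04 against 9.31 to 28.8 RPKM). Lower at F20 were fbxa-52 (X:1712001–1713000, 0 to 8.78 against 5.99 to 22.3 RPKM) and K11E4.1 (X:13716001–13717000, 2.05 to 9.42 against 18.15 to 31.05 RPKM).

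With all states pooled, 0 members were called in the set-32 libraries against wild type, and 0% of all bins (limma; 340 members at an unadjusted p under 0.05, with 11.3% of the members higher and 6.24% lower, against 8.57 and 2.7% of the autosomal bins). The nearest was Y16B4A.2 (X:14768001–14769000), at 74.5 to 146 RPKM in the 8 set-32 libraries and 4.98 to 53.7 RPKM in the 4 wild-type ones, without overlap (log2 difference 3.07 ± 0.46; adjusted p = 0.0522). A bin with no named gene near the right end (X:17707001–17708000) was at 40.7 to 66.3 against 7.82 to 20.1 RPKM (adjusted p = 0.0595). On the lower side try-14, a trypsin-like protease gene (X:7494001–7495000), was at 0 to 12.6 against 11.04 to 24.7 RPKM (limma adjusted p = 0.184). A bin of lfi-1 (X:4989001–4990000) was at 0 to 6.86 against 7.33 to 19.3 RPKM (limma adjusted p = 0.18). The never mutant and mutant set-32 libraries, all high-total, had 0 to 0.04 RPKM at try-14 and 0 to 0.1 at lfi-1. Repaired set-32 libraries had 3.01 to 12.6 and 3.01 to 6.86 RPKM, and high-total early repaired met-2 set-25 had 0 at both. No wild-type library is high-total, so these ranges do not separate set-32 from that class. The share of X was 9.60 ± 0.82% (n = 8) against 9.72 ± 0.65% (n = 4; exact permutation p = 0.798, adjusted 0.798).

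In met-2 set-25, 0 members were called against wild type, where 0.287% of all bins were (limma; unadjusted, 126 members (6.5%) were higher and 60 (3.09%) lower at p under 0.05, against 7.98 and 4.46% of the autosomal bins). gpa-12, a G protein alpha subunit gene (X:9249001–9250000), was at 8.96 to 104 RPKM against 2.85 to 16.8 RPKM and its neighbouring bin (X:9250001–9251000) at 16.4 to 83.1 against 0 to 24.8 RPKM, with adjusted p of 0.0953 and 0.0901. The bins at X:16453001–16454000 and X:16455001–16456000, with no named gene, were lower without overlap, at 3.10 to 23.5 against 29.0 to 57.9 RPKM and at 6.01 to 16.6 against 25.45 to 37.4 RPKM (adjusted p = 0.0954 and 0.105). The share of X was 9.45 ± 1.13% against 9.72 ± 0.65% (n = 4 each; exact permutation p = 0.657, adjusted 0.767).

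The repaired libraries alone were then compared by SET-32, the 4 of the set-32 alleles against the 4 of wild type and met-2 set-25, with the generation as a block; this comparison was added after the values were seen. It uses no mutant or never mutant library. The early and F20 libraries of a background were counted as separate replicates, and their pairing by background was not fitted. The p-values of this comparison therefore do not measure the spread between backgrounds alone. Of the members, 11 were called, 7 higher and 4 lower in repaired set-32 libraries, which is 0.567% of the members, and 0.61% of all bins were called (limma). Of the 7 higher ones, 3 lay in the F41G4 run: the bin at X:16828001–16829000 (16.2 to 97.55 against 0 to 2.76 RPKM), and 2 bins of F41G4.5 (X:16830001–16831000, 19.4 to 81.4 against 0 to 4.14 RPKM, adjusted p = 0.0212; X:16832001–16833000, 63.4 to 93.4 against 3.51 to 22.04 RPKM, adjusted p = 0.0145). The bin of F41G4.13 and F41G4.7 (X:16834001–16835000) was lower, at 30.9 to 61.8 against 104 to 152 RPKM (log2 difference −1.57 ± 0.28; adjusted p = 0.0413).

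Of the 11, 3 were also among the 23 called in the hrde-1 mutants, and the bin X:16830001–16831000 and the 7 outside the F41G4 run were not. srg-36, a chemoreceptor gene (X:14232001–14233000), was at 33.2, 52.1, 52.8 and 48.2 RPKM in the repaired set-32 libraries and at 5.70 to 7.43 RPKM in the others (log2 difference 2.69 ± 0.33; adjusted p = 0.0127). Its level was as high in never mutant set-32(ok1457) and set-32(red11), at 40.3 and 39.25 RPKM, and in N2 it was 26.2 RPKM. atf-6, a gene of the endoplasmic reticulum stress response (X:12482001–12483000), was listed at 0 to 0.03 RPKM in the repaired set-32 libraries and at 9.77 to 44.1 RPKM in the others. Among never mutant libraries it was at 4.35 RPKM in N2, 8.58 in set-32(ok1457), 9.79 in set-32(red11) and 3.72 in met-2 set-25. Its mean of 9.84 RPKM owes most to the repaired met-2 set-25 libraries (44.1 and 43.1 RPKM). The call at atf-6 is therefore not independent of the filter on the mean. F31A9.2, a long intergenic RNA gene (X:1795001–1796000), was at 4.34 to 12.05 RPKM against 35.9 to 88.2 RPKM, and F23A7.5 (X:16232001–16233000) at 6.03 to 23.3 against 44.45 to 78.7 RPKM. Higher bins with no named gene lay at X:8157001–8158000 and at the right end (X:17707001–17709000).

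The 23 members called in the mutants were followed in the same comparison, in which 42.8% of all members lay above 0. Of the 5 that were higher in mutants, 5 were higher in repaired set-32 libraries (2 called), and of the 18 that were lower in mutants, 14 were lower there (1 called) and 4 were above 0. K02D3.2, srd-50, C45B2.6 and the bin at X:15345001–15346000 were those 4. Counted as regions of neighbouring bins, 3 of 3 that were higher in mutants were above 0, and of the 11 that were lower in mutants 7 were below 0. The number of called members was 0 without set-32(ok1457), 7 without met-2 set-25, 16 without wild type and 27 without set-32(red11), and it was 3 with a pseudocount of 0.25 and 0 without the filter on low bins.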

How the data were processed

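The authors deposited 1 table of RPKM values in bins of 1000 bp with yes/no marks named GRH, GRTS and misanotated, the last on 105 bins of X and 10 of the members. Per the submitters' processing notes the tools included Bowtie 0.12.7. Not given in the sources used here: the build, how multiply matching reads were placed, what depth the RPKM was scaled to, and how the marks were set. Another 27 library columns matched no sample and were not used. Columns were matched to libraries by the name in each library's description, and groups by the sample titles.

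Bin coordinates are those of the deposited table, written from 1. Genes overlapping a bin on either strand were named from the Ensembl annotation of WBcel235, without piRNA genes. Depth was read from the most common low value of each library. Low values are not nearly all whole multiples of it, so reads were not recovered and no count test was run.

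The 25407 bins whose mean reached 5 RPKM were tested on the log2(RPKM + 1) scale by limma 3.58.1 with a mean-variance trend in R 4.3.3, two-sided and Benjamini-Hochberg adjusted over all of them; an adjusted p under 0.05 was called. States were compared with the background as a block and backgrounds with the state as a block, each block holding 1 library of every state or background. This scale makes the changes of low bins look smaller than they are. The bins tested include those with a GRH or GRTS mark. Shares of all bins, and of autosomal bins at an unadjusted p, include them too. The share of X was tested by exact permutation of libraries, two-sided. Both steps were tested on simulated data.

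Named bins are the 10 members of highest mean, the 10 of largest SD of log2(RPKM + 1), and in each comparison the 5 called members of largest change in each direction, or the 2 of lowest p in each direction where 0 were called. The other named bins belong to the gene lists (yolk proteins, siRNA targets, dosage compensation, germline factors, muscle, hypodermis, intestine, neurons and microRNA genes) or were chosen after their values were seen, as were the summed loci. The members and lists were chosen with earlier results of these data known.

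Alternatives were another pseudocount (0.25), no filter, a filter of 10 RPKM, values centred on each library's median, no block, 1 additive fit of all 16 libraries, the class of the summed RPKM as a term, leaving out each background or state, and, for the share of X, member bins only, no vit bins, bins capped at 100 RPKM and exchange within blocks.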

Additional observations from a re-analysis of the deposited data

Results flagged for a closer look

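In the 88 groups of 4 libraries examined for 1 library far from the other 3, 8 were found. Chance marks about 1 in 20 such groups of independent values, and these groups share libraries and loci, so the 8 are not read against it. The Y73B3A and K09E3.4 bins summed here were picked as called losses in the mutants, and F41G4.5 and F41G4.7 hold called bins. A gap between mutant and never mutant libraries at these loci follows in part from that choice. In wild type the hrde-1 mutant stood apart at linc-22 (2077 RPKM over its 5 bins; nearest other 2795 RPKM, the value of N2), at F41G4.5 (126.3 RPKM; nearest 29.1), at F41G4.7 (116.6 RPKM; nearest 365.7) and over the microRNA genes of X (1810 RPKM; nearest 2463). The never mutant library stood apart from the mutant and repaired libraries of its background at Y73B3A in set-32(ok1457) (544.2 RPKM; nearest 138.1) and in set-32(red11) (538.3 RPKM; nearest 121.4), and at K09E3.4 in set-32(ok1457) (410.6 RPKM; nearest 126.1). Among the early repaired libraries wild type stood apart at Y73B3A (377.5 RPKM; nearest 121.4).

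In 10 of 33 quantities, both set-32 backgrounds moved one way between mutant and repaired libraries and wild type and met-2 set-25 the other way, which was not tested. The values are the mean change, repaired minus mutant, of the set-32 backgrounds minus that of the other 2, in summed RPKM. They were 10302 at the early generation and 8739 at F20 for vit-1 to vit-5, 379.6 and 380.5 for the muscle genes, 364.0 and 274.7 for the hypodermis genes, −1986 and −1329.6 for the microRNA genes, and −2341 and −1216 for linc-22. In both set-32 backgrounds the mutant is a high-total library and the repaired ones are not, so the class of the summed RPKM and the background cannot be told apart in these changes.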

How the results depend on the processing

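X was below the autosomes under each alternative run, with log2 ratios of −0.81 (bins with a read), −1.09 (no vit bins), −0.94 (no GRH or GRTS bins) and −1.12 (bins capped at 100 RPKM), and of −1.03 to −1.004 leaving out 1 library at a time. Between mutant and never mutant libraries, 23 X members were called as reported, 9 with a pseudocount of 0.25, 0 without the filter on low bins, 5 with no block, 14 in the additive fit of all 16 libraries and 0 to 11 leaving out a background; none of the 23 changed direction. The class of the summed RPKM is collinear with the block there and gave no value. For early repaired and F20 against mutant libraries the counts were 0 as reported, 2 and 2 in the additive fit and 3 and 5 with that class as a term. For set-32 against wild type they were 0 as reported, 1 with a filter of 10 RPKM, 3 with no block, 4 in the additive fit, 14 with the class as a term and 0 to 3 leaving out a state, and for met-2 set-25 0 as reported, 2 in the additive fit and 0 to 1 leaving out a state. For repaired set-32 against the other repaired libraries, where all settings were chosen after seeing the data, 11 were called as reported, 3 with a pseudocount of 0.25, 0 without the filter, 16 centred (12 higher and 4 lower), 17 with no block, 5 with the class as a term and 0 to 27 leaving out a background.

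The difference in the share of X turned for set-32 against wild type from −0.13 to 0.035 percentage points with member bins only and to 0.13 without the vit bins, and over the states left out it ran from −0.37 to 0.17. For met-2 set-25 it turned from −0.27 to 0.35 without the never mutant libraries (−0.74 to 0.35 over the states left out), and for early repaired against never mutant from 0.33 to −0.27 without met-2 set-25 (−0.27 to 0.82 over the backgrounds left out). None of these passed a test at any setting. With the replicate block, exchanging libraries within the 4 backgrounds, the exact permutation p for repaired against mutant libraries was 0.292 after adjustment. The cause of these moves was not tested. Depth limits what can be read from low bins: in the shallowest library 3 reads are worth 18.9 RPKM, more than the median member.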
